A study of Drosophila melanogaster with 6 samples.

Results

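The 10 genes described here act at the first steps of autophagy in Drosophila melanogaster: Atg1, Atg13, Atg17 and Atg101 (initiation), Atg6 and Atg14 (nucleation), and Atg9, Atg2, Atg18a and Atg18b (membrane supply). They were chosen with earlier results of these data known. Their probe sets were taken by symbol, as those that the array's annotation assigns to 1 of these genes and to no other. All 10 were measured, each by 1 probe set, among 11983 genes with such a probe set. RNA came from whole prepupae at 0 h, immediately after pupariation, raised at 25 °C. The mutant animals were homozygous for sox14L1, an allele of the transcription factor gene Sox14, in the w1118 background, and the controls were w1118 animals without the allele. Each genotype had 3 samples, each pooled from 10 prepupae and hybridised to its own Affymetrix Drosophila Genome 2.0 array. The labels do not state whether these samples came from separate cultures, and p-values here therefore measure only the spread among them, which may be technical.

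Autophagy encloses part of the cytoplasm in a double membrane, the autophagosome, which then fuses with the lysosome. The Atg1 kinase complex starts the process, and a lipid kinase complex that holds Atg6 and Atg14 marks the forming membrane with phosphatidylinositol 3-phosphate. Atg9, Atg2 and the Atg18 proteins then supply lipid to that membrane. In Drosophila, the steroid hormone ecdysone induces autophagy at metamorphosis in larval tissues such as the fat body, the midgut and the salivary gland.

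In sox14 mutant prepupae 7 of the 10 genes fell, 1 rose and 2 were not called by limma at an adjusted p under 0.05. Among all genes 13.4% fell and 11.3% rose by the same test. The median change of the 10 was -0.63 on the log2 scale, against -0.03 for all genes. Because the 10 were chosen with earlier results known, these contrasts with all genes are a description with no test. Atg18b, Atg9 and Atg18a fell by more than 2-fold, as did 2.58% of all genes. Every change below is the mutant mean minus the control mean of log2 values with its standard error, and every adjusted p is from limma adjusted by Benjamini-Hochberg over the 18769 probe sets tested. The values are levels of a probe set on a log2 scale after RMA, the authors' background correction, normalisation and summary of each probe set, so levels of different genes are not compared.

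**Figure D1:**
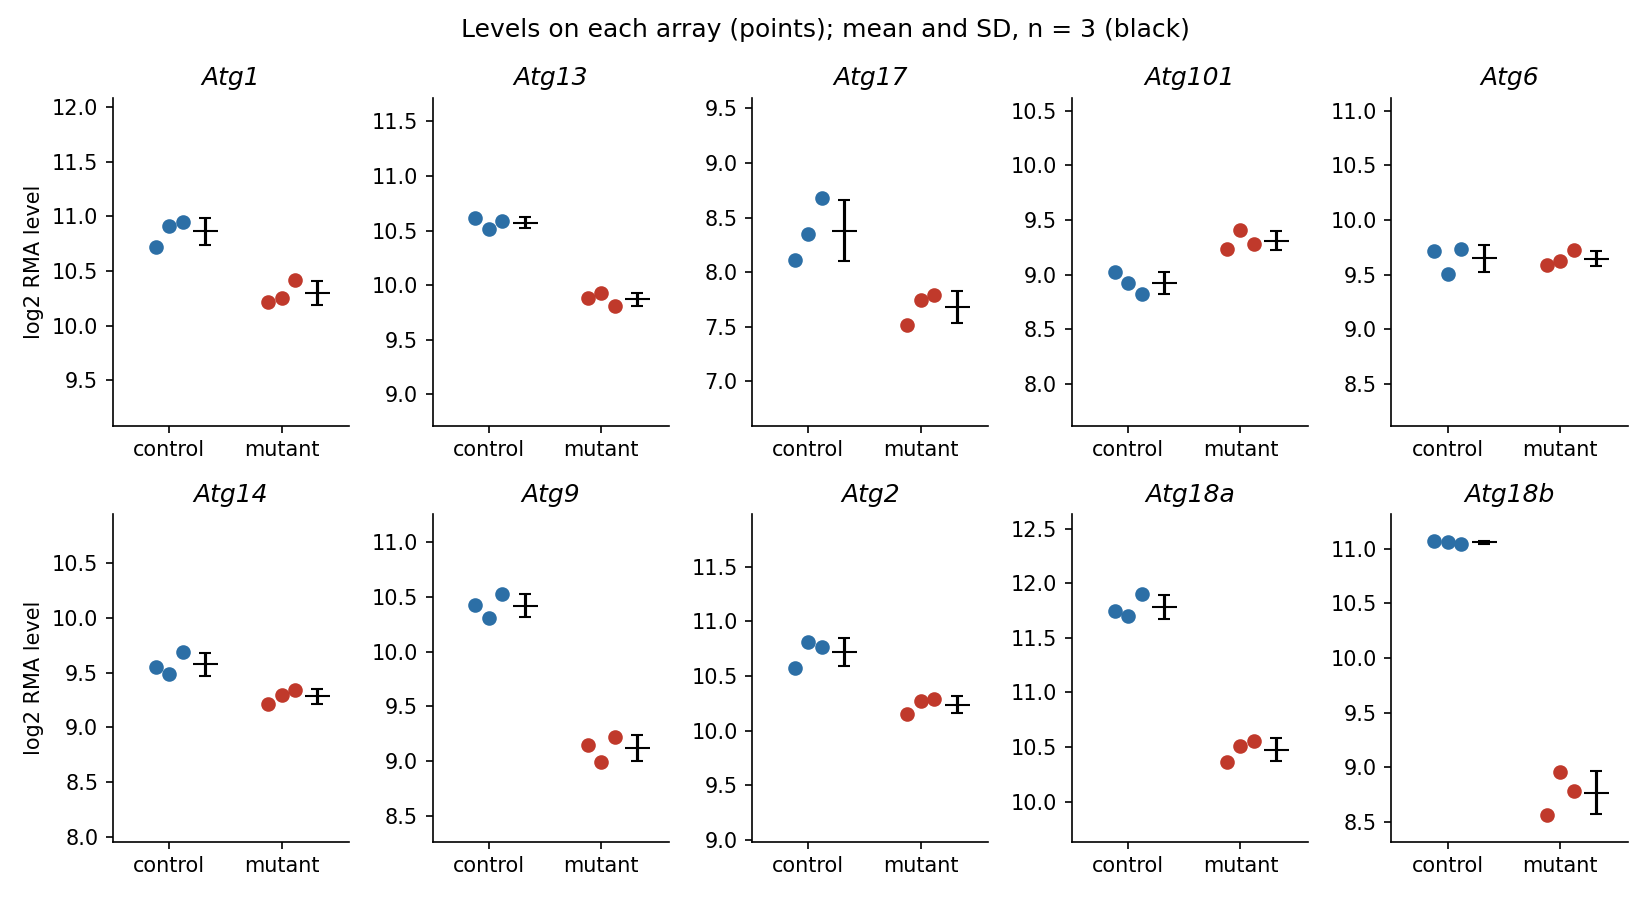
Log2 RMA level of each of the 10 genes on every array, with control arrays in blue, mutant arrays in red, and the mean and SD of 3 arrays in black beside them. Each panel spans 3 log2 units; Atg18b, Atg9 and Atg18a show the widest gaps between the genotypes, Atg101 alone lies higher in the mutant, and the genotypes overlap for Atg6.

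Sox14 itself read 10.34, 10.67 and 10.73 on the mutant arrays and 11.40, 11.60 and 11.72 on the control arrays, a fall of 0.99 ± 0.13 (adjusted p = 0.00101). Arrays of the same genotype correlated at 0.993 to 0.996, and arrays of different genotypes at 0.976 or less. Of all probe sets 19.1% were called, 10.4% lower and 8.64% higher in the mutant. On the first mutant array the 3 probe sets for 18S ribosomal RNA averaged 12.18 on the log2 scale, against 7.56 to 7.94 on the other arrays. That array also held the lowest mutant value for 8 of the 10 genes. The same count over all genes was not made, and a link to the 18S signal was not tested. Without the first mutant array, the same 7 genes fell and Atg101 rose, as given with each value below. The lowest value of any of the 10 genes on any array was 7.51. It lay above the arrays' low range, taken here as the lower 95% of the 100 AFFX-Dm control probe sets, which ended at 5.93 to 6.75 depending on the array.

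Markers of larval tissues also moved between the genotypes. The 7 measured midgut genes were alphaTry, betaTry, epsilonTry, Jon44E, Jon65Aiii, Mal-A1 and Vha100-4. Their mean log2 level was 11.96 to 12.06 on the mutant arrays and 8.58 to 8.82 on the control arrays. All 7 rose, but Jon25Biii (-1.24), Jon25Bii (-0.60) and iotaTry (-0.50) of the same gene families had lower mutant means. The 7 thus do not stand for their whole families. For 6 measured muscle genes the mean log2 level was 9.43 to 9.58 for mutant and 7.87 to 7.93 for control arrays, and all 6 rose. Of 3 measured fat body genes 1 fell and none rose, and their mean lay at 14.90 to 14.95 for mutant and 15.25 to 15.31 for control arrays. The 6 salivary gland glue genes averaged 13.14, 10.72 and 12.89 on the mutant arrays and 12.43, 12.22 and 12.01 on the control arrays. The genotypes overlapped because of the second mutant array, which was lowest, and 1 of the 6 genes rose. Of 6 hemocyte genes 3 rose and 1 fell (7.70 to 7.84 in the mutant and 7.28 to 7.51 in the control), and of 4 neuronal genes 1 rose and 1 fell (7.90 to 7.99 and 7.65 to 7.69). None of these markers lay in the low range on all 6 arrays. Their part in the changes of the autophagy genes was not tested, and in RNA from whole animals fewer cells of a type and less RNA per cell cannot be told apart.

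The first group to be considered was the Atg1 kinase complex. Atg1 (CG10967, probe set 1627886_at) encodes the protein kinase that starts autophagy and is held back by TOR when nutrients are plentiful. It read 10.22, 10.26 and 10.42 on the 3 mutant arrays and 10.72, 10.92 and 10.95 on the 3 control arrays. All mutant arrays lay below all control arrays, by at least 0.30, which held for 24.5% of all genes. Atg1 fell by 0.57 ± 0.10 (adjusted p = 0.00596), which is 1.48-fold, and by 0.52 ± 0.12 (adjusted p = 0.0237) without the first mutant array.

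Atg13 (CG7331, probe set 1635910_at), the regulatory partner that binds Atg1 and is itself a target of TOR and Atg1, had replicates close together. Its levels were 9.88, 9.93 and 9.81 in the mutant and 10.62, 10.52 and 10.58 in the control, with 0.59 between the highest mutant and the lowest control array. It fell by 0.70 ± 0.09 (adjusted p = 0.000652; -0.70 without the first mutant array). The SD was 0.06 for mutant and 0.05 for control arrays.

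Atg17 (CG1347, probe set 1640321_at) encodes the large scaffold of the complex, the counterpart of mammalian FIP200. Of the 10 genes it varied most between control arrays, at 8.11, 8.35 and 8.68 (SD 0.28), and it read 7.51, 7.75 and 7.79 in the mutant. The genotypes did not overlap. Its fall of 0.70 ± 0.15 (adjusted p = 0.0128) matched that of Atg13 in size but had a wider interval, -1.04 to -0.35, and it was 0.61 ± 0.16 (adjusted p = 0.0469) without the first mutant array.

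Atg101 (CG7053, probe set 1640015_at), the small HORMA-domain subunit that pairs with Atg13, was the 1 gene of the 10 that rose. It read 9.24, 9.41 and 9.28 on the mutant arrays and 9.02, 8.92 and 8.82 on the control arrays. All mutant arrays lay above all control arrays, by at least 0.21, as for 18.3% of all genes. The rise was 0.39 ± 0.10 (adjusted p = 0.0243), which is 1.31-fold, and 0.42 ± 0.11 (adjusted p = 0.0401) without the first mutant array. Its call was lost when the second mutant array (adjusted p = 0.102), the third mutant array (0.0584), the second control array (0.0556) or the third control array (0.0675) was left out, with changes of 0.34 to 0.40. Of the 4 measured subunits of the kinase complex, 3 thus fell and Atg101 rose in the fit to all 6 arrays.

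Neither nucleation gene was called. Atg6 (CG5429, probe set 1636499_at), the Drosophila Beclin 1, is a shared subunit of the lipid kinase complexes that serve autophagy and endocytosis. Mutant arrays read 9.59, 9.63 and 9.73 and control arrays 9.71, 9.50 and 9.73, and the genotypes overlapped. The difference was -0.0013 ± 0.10 (adjusted p = 0.996), with a 95% interval of -0.23 to 0.23, which bounds a change in either direction at that size but does not show that there was none.

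Atg14 (CG11877, probe set 1631515_at) directs the lipid kinase complex to autophagy. It read 9.21, 9.29 and 9.34 on the mutant arrays and 9.55, 9.49 and 9.69 on the control arrays. All mutant arrays lay below all control arrays, by at least 0.15. The difference of -0.29 ± 0.09 did not pass the test (adjusted p = 0.0639), and its unadjusted 95% interval was -0.51 to -0.08. It was -0.26 (adjusted p = 0.167) without the first mutant array, and it passed when each array was centred on its median (-0.34, adjusted p = 0.0369).

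The membrane supply genes held the 3 largest falls. Atg9 (CG3615, probe set 1626033_at) encodes the multi-spanning membrane protein whose vesicles seed the forming autophagosome. Mutant arrays read 9.15, 8.99 and 9.22 and control arrays 10.42, 10.31 and 10.53, with 1.09 between the highest mutant and the lowest control array. Atg9 fell by 1.31 ± 0.10 (adjusted p = 4.93e-05), which is 2.47-fold, and by 1.32 ± 0.12 without the first mutant array. Only 1.49% of all genes had a change as low or lower.

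Atg2 (CG1241, probe set 1632297_at) encodes a long rod-shaped protein, which in yeast and mammals carries lipids from the endoplasmic reticulum to the growing membrane. The mutant arrays read 10.15, 10.27 and 10.29 and the control arrays 10.57, 10.81 and 10.77. The genotypes did not overlap, and Atg2 fell by 0.48 ± 0.10 (adjusted p = 0.0108), the smallest of the 7 falls. It fell by 0.43 ± 0.11 (adjusted p = 0.0381) without the first mutant array.

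Atg18a and Atg18b belong to the PROPPIN family of WD-repeat proteins, which bind phosphatidylinositol 3-phosphate, the family in which yeast Atg18 recruits Atg2. Atg18a (CG7986, probe set 1639602_s_at) read 10.36, 10.51 and 10.56 on mutant arrays and 11.75, 11.69 and 11.90 on control arrays. It fell by 1.30 ± 0.10 (adjusted p = 4.18e-05), which is 2.47-fold, and by 1.25 ± 0.10 without the first mutant array. The suffix of its probe set marks a type that can share probes between transcripts, but the annotation names Atg18a alone for it.

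Atg18b (CG8678, probe set 1628475_at) had the largest change of the 10 genes. Its control values were nearly identical, at 11.07, 11.06 and 11.05 (SD 0.01), and its mutant values were 8.56, 8.96 and 8.78 (SD 0.20). At least 2.09 lay between any mutant and any control array. Atg18b fell by 2.29 ± 0.11 (adjusted p = 3.55e-06), which is 4.90-fold, and by 2.19 ± 0.10 without the first mutant array. Of the 11983 genes, 43 had a change as low or lower, Atg18b included.

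**Figure D2:**
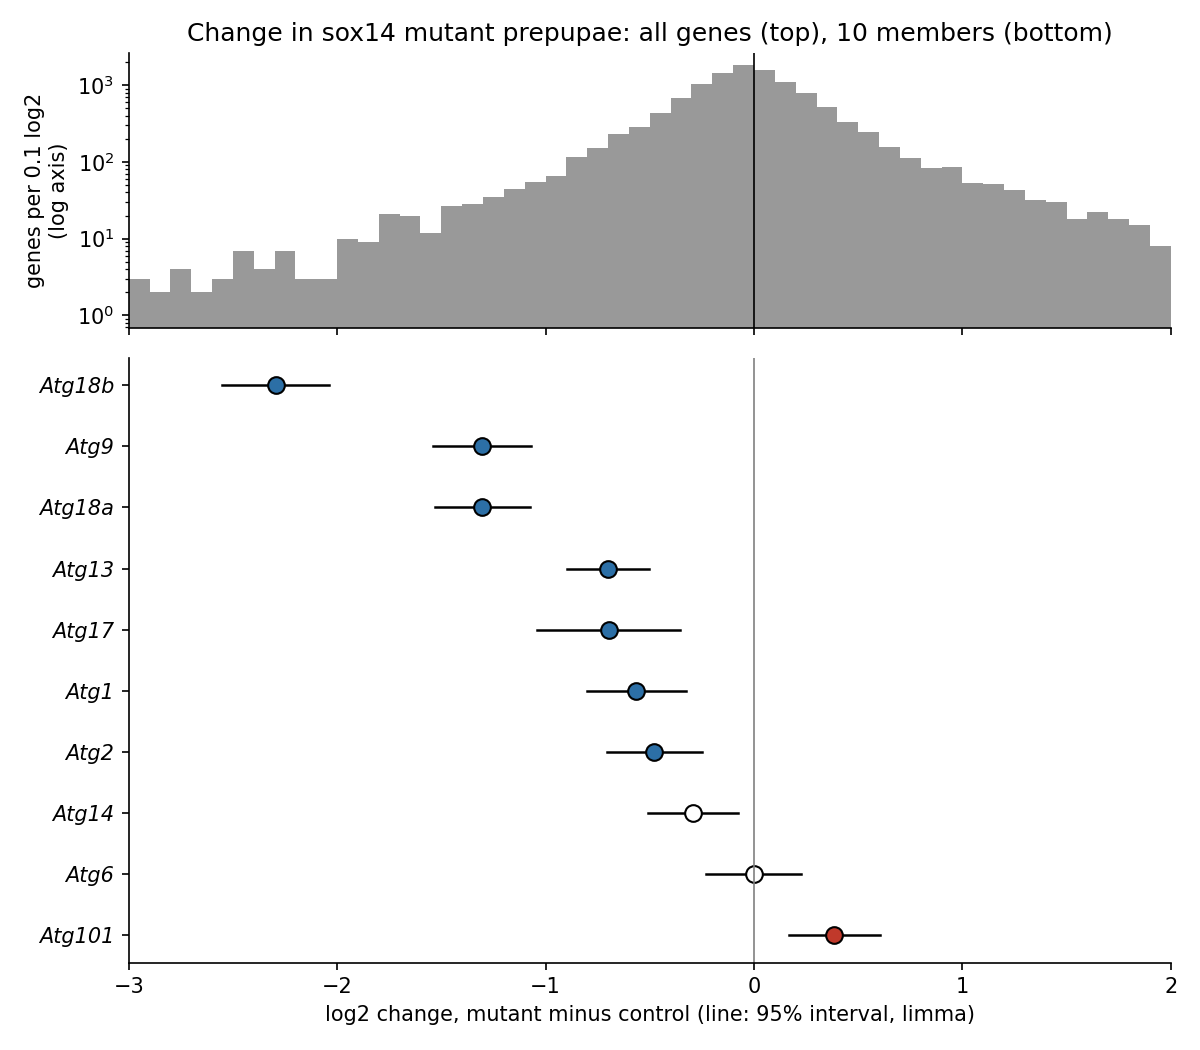
Distribution of the log2 change (mutant minus control) over 11983 genes, with the number of genes on a log axis (top; 16 genes below -3 and 149 above 2 lie outside the plotted range), and the change of each of the 10 genes with its 95% interval from limma (bottom). Blue points fell, the red point rose and open points were not called; the interval of Atg18b, -2.55 to -2.04, lies below those of all the others.

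In order of change, from the most negative, the genes ran Atg18b, Atg9, Atg18a, Atg13, Atg17, Atg1, Atg2, Atg14, Atg6 and Atg101. For each of the 9 neighbouring pairs the difference between their levels was taken on every array. It overlapped between the genotypes for 4 pairs, namely Atg9 and Atg18a, Atg13 and Atg17, Atg17 and Atg1, and Atg1 and Atg2, and it did not overlap for the other 5. The same values set the order, so these counts are a description with no test.

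The paralogues Atg18a and Atg18b were compared directly. The level of Atg18b minus that of Atg18a was -1.80, -1.56 and -1.78 on the mutant arrays and -0.68, -0.64 and -0.85 on the control arrays. The genotypes did not overlap, and the mean of this difference was -1.71 ± 0.14 in mutant and -0.72 ± 0.12 in control arrays (SD, n = 3), a change of -0.99. A 2-sided exact permutation test over the arrays gave p = 0.1, the smallest that 3 against 3 arrays allow, so this design could not pass the threshold by that test.

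Position was examined because Sox14 lies on arm 2R, and effects of the allele and of other differences carried on the same chromosome cannot be told apart. Atg9 lies on 2R and Atg18b on 2L. The other 8 genes lie elsewhere: Atg1, Atg2 and Atg18a on 3L, Atg6, Atg13, Atg14 and Atg17 on 3R, and Atg101 on the X. Of these 8, 5 fell and 1 rose, with a median change of -0.52. Of 7261 genes off chromosome 2, 13.3% fell, with a median of -0.04. Whether differences carried on chromosome 2 or elsewhere contribute to the changes was not tested.

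The nearest measured gene on each side of each of the 10 was looked up in the RefSeq annotation. Of these 20 neighbours 3 fell, 2 rose and 15 were not called, a share called near the 24.7% of all genes. Both neighbours of Atg9 rose, CG7747 by 0.63 ± 0.09 (adjusted p = 0.00148) and Nox, which encodes an NADPH oxidase, by 1.27 ± 0.10 (adjusted p = 4.63e-05), opposite to the fall of Atg9 between them. For Atg1, Atg2, Atg13, Atg17, Atg18a and Atg101, none of the neighbours was called. Beside Atg6, Pisd, which encodes an enzyme that makes phosphatidylethanolamine, fell by 0.66 ± 0.10 (adjusted p = 0.00215).

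Some of the 10 genes share their place in the genome with another measured gene. CG8679 lies within Atg18b, and it read 6.59, 6.59 and 6.52 on mutant arrays and 8.12, 7.89 and 8.35 on control arrays. It was called lower (-1.55 ± 0.12, adjusted p = 5.30e-05), but on 2 of the 3 mutant arrays it lay in the arrays' low range, so the size of its change is uncertain. The gene yem, which partly overlaps Atg14, fell by 0.36 ± 0.09 (adjusted p = 0.0251), a call lost without the first or second mutant or the second or the third control array (adjusted p up to 0.0930). By contrast, CG42709 within Atg1 (0.20 ± 0.09, adjusted p = 0.176) and S6KL, which spans Atg101 (0.15 ± 0.10, adjusted p = 0.388), were not called. Whether transcripts of the overlapping genes add to each other's signal was not tested.

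**Figure D3:**
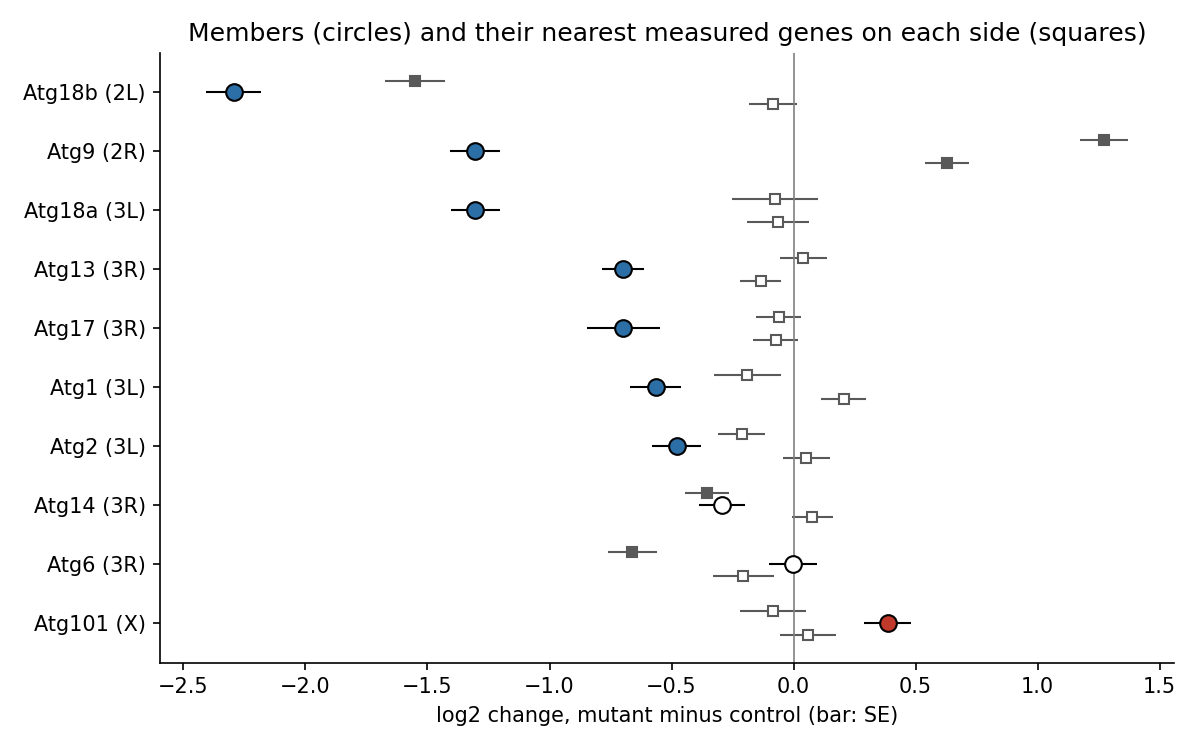
Log2 change (mutant minus control) with its standard error for each of the 10 genes (circles, chromosome arm in brackets) and for the nearest measured gene on each side (squares, filled where called). Atg9 fell between neighbours that rose, and the filled square beside Atg18b at -1.55 is CG8679, which lies within it.

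The other genes of the pathway were described with 7 lists, also chosen with earlier results of these data known. Of the 63 measured genes of these lists, 18 fell and 6 rose (38.1% called), whereas 13.4% of all genes fell and 11.3% rose (24.7% called). With each array left out in turn, 12 to 17 of the 63 genes fell and 4 to 6 rose. In the Atg8 and Atg12 conjugation systems, which attach ubiquitin-like proteins to the growing membrane, 6 of 10 genes fell and none rose, with a median change of -0.54. The smallest of these falls was that of Atg8a, named after its value was seen (0.35 ± 0.09, adjusted p = 0.0298). Its call was lost without any of 5 arrays (adjusted p up to 0.0958, the exception being the third control array). Atg7, the E1-like enzyme, fell by 1.67 ± 0.10, and Atg3, the E2-like enzyme that acts on Atg8, by 1.15 ± 0.10 (adjusted p = 7.38e-05). Atg4a, a protease that processes Atg8, fell by 0.97 ± 0.09 (adjusted p = 0.000122), and Atg5, part of the Atg12 conjugate, by 0.96 ± 0.13 (adjusted p = 0.00121).

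The next list held partners of the nucleation genes. Of 6 genes for subunits of the lipid kinase complexes and for phosphatases that act on their product, 1 fell, with a median change of -0.12, a share (16.7%) not far from that of all genes called (24.7%). This was Pi3K59F, the catalytic subunit (Vps34), at 7.84 ± 0.21 on mutant and 8.55 ± 0.34 on control arrays (SD, n = 3), a fall of 0.71 ± 0.18 (adjusted p = 0.0241 in limma). Its call was lost without the first or the second mutant array (adjusted p up to 0.0838). The regulatory subunit gene Vps15, chosen for mention as the partner of Pi3K59F after its value was seen, differed by -0.08 ± 0.08 (adjusted p = 0.588). Among 5 genes of early membrane traffic and lipid scrambling 1 fell, Tango5, which encodes the counterpart of the mammalian vacuole membrane protein VMP1. Mutant arrays read 8.76 ± 0.19 and control arrays 10.10 ± 0.16 (SD, n = 3), a fall of 1.34 ± 0.13 (adjusted p = 0.000152 in limma). The median of these 5 was -0.06.

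**Figure D4:**
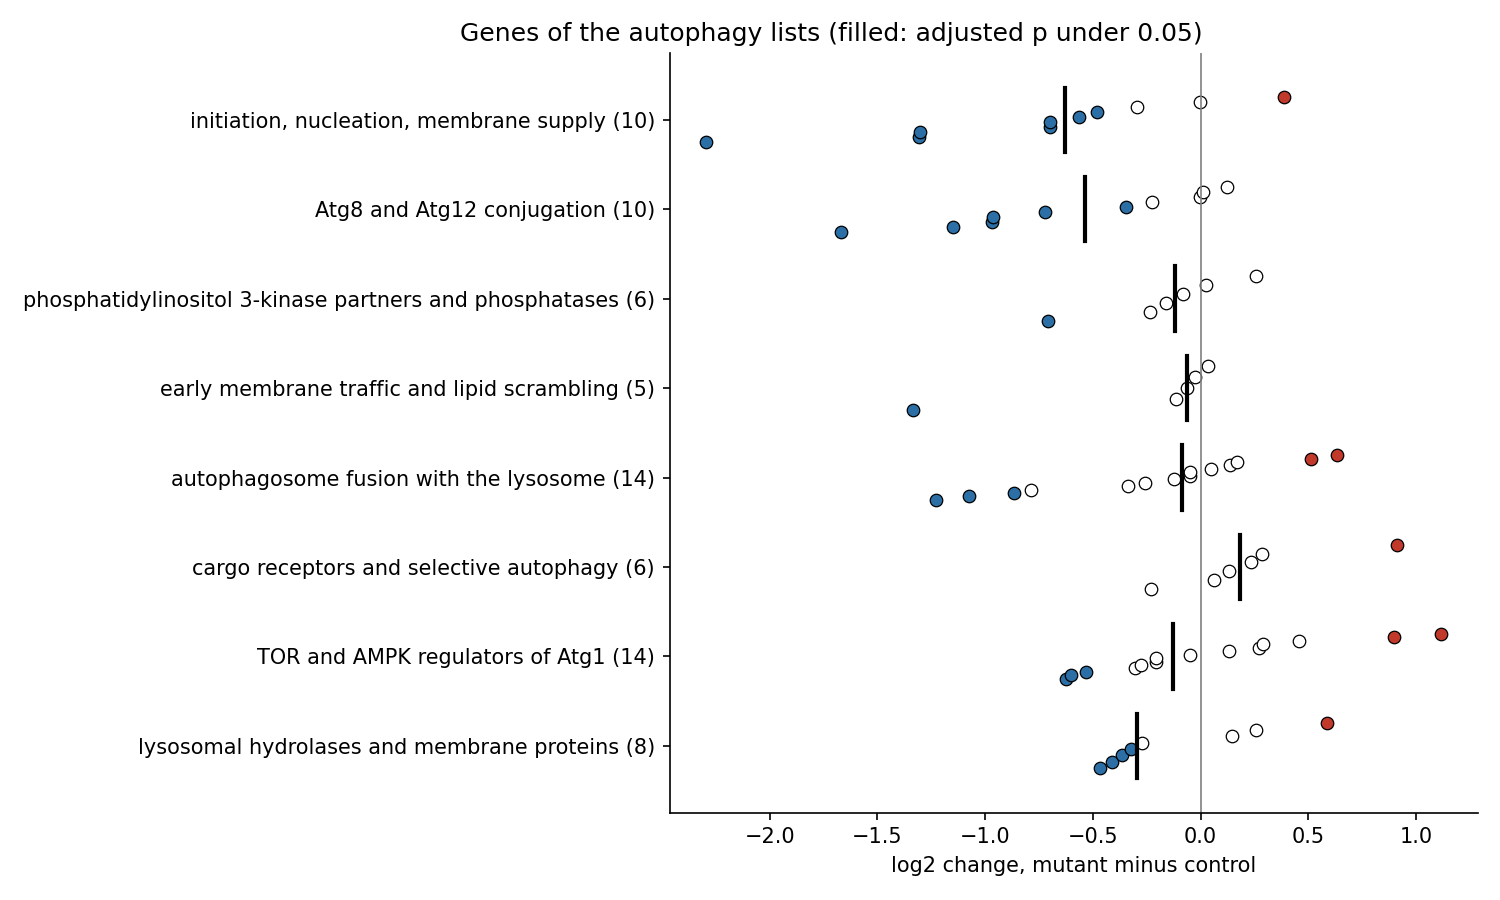
Log2 change (mutant minus control) of every measured gene in the 10 genes of initiation, nucleation and membrane supply (top) and in the 7 other lists, with the number of genes in brackets and the median as a black bar. Blue points fell, red points rose and open points were not called; the medians of the 10 genes (-0.63) and of the conjugation systems (-0.54) are the lowest of the 8.

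The counts at the later steps are to be read against the 13.4% of all genes that fell and the 11.3% that rose. Of 14 genes for fusion of the autophagosome with the lysosome, 3 fell and 2 rose, with a median of -0.09. Plekhm1, an adaptor, fell by 1.23 ± 0.10 (adjusted p = 4.77e-05), the SNARE gene Snap29 by 1.07 ± 0.09 (adjusted p = 7.87e-05) and the tethering gene Epg5 by 0.87 ± 0.14 (adjusted p = 0.00327). The HOPS tethering subunits lt (0.63 ± 0.13, adjusted p = 0.0115) and Vps11 (0.51 ± 0.13, adjusted p = 0.0292, named after its value was seen) rose, the latter with its call lost without any of 5 arrays (adjusted p up to 0.0976, the exception being the first control array). Of 6 genes for cargo receptors and selective autophagy, ref(2)P, a receptor that is itself degraded by autophagy, was the 1 that rose (0.91 ± 0.14, adjusted p = 0.00218), and none fell.

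Of 8 genes of lysosomal enzymes and membrane proteins 4 fell and 1 rose, with a median of -0.30. The falls were small: cathD, a cathepsin, by 0.46 ± 0.09 (adjusted p = 0.00685), the sterol-binding protein gene Npc2a by 0.41 ± 0.10, Lamp1 by 0.37 ± 0.08 and CtsB, named after its value was seen, by 0.32 ± 0.09. The calls of CtsB, Npc2a and Lamp1 were lost without any of 5, 4 and 3 arrays respectively, with adjusted p-values up to 0.111, 0.102 and 0.0683; the arrays were all mutant and the first and the second control arrays for CtsB, the second and the third mutant and the first and the third control arrays for Npc2a, and the second and the third mutant and the first control array for Lamp1. The mannosidase gene LManII rose by 0.59 ± 0.12 (adjusted p = 0.0104).

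Upstream of the Atg1 complex, 3 of 14 genes of the insulin, TOR and AMPK pathways fell and 2 rose, with a median of -0.13. Among those not called, alc lay in the low range on all 6 arrays and raptor on 3, so their changes are uncertain. In the other lists Atg10 and Rab2, also not called, lay in it on 1 array each. The insulin receptor gene InR read 8.64 ± 0.30 on mutant and 7.53 ± 0.58 on control arrays (SD, n = 3) and rose by 1.12 ± 0.27 (adjusted p = 0.0226 in limma). Pdk1, a kinase below the receptor, rose by 0.90 ± 0.11 (adjusted p = 0.000642). AMPKalpha, the catalytic subunit of the energy-sensing kinase, fell by 0.62 ± 0.13 (adjusted p = 0.00945), S6k, a kinase that TOR activates, by 0.60 ± 0.13 (adjusted p = 0.0146), and the transcription factor gene foxo, named after its value was seen, by 0.53 ± 0.12 (adjusted p = 0.0131). The call of InR was lost without the first or the second mutant array (adjusted p up to 0.0814), and that of S6k without the second mutant or the third control array (adjusted p up to 0.0556). The gene of the TOR kinase itself was not analysed here. The shares called, 60.0% in the conjugation systems, 62.5% among the lysosomal genes, 35.7% in the fusion and upstream lists, 20.0% in early membrane traffic and 16.7% among the lipid kinase partners and cargo receptors, are to be read against 24.7% of all genes. Without the second or the third mutant array or the first control array, 2 of the 8 lysosomal genes (25.0%) were called, 1 lower and 1 higher, and with arrays left out in turn the share of all genes was 17.2% to 22.7%.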

How the data were processed

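Biotin-labelled RNA was hybridised to 6 Affymetrix arrays. Per the submitters' processing notes, the deposited log2 levels were made with RMA (Affymetrix Expression Console 1.1). This method compresses changes of dim or saturated probe sets and removes differences in total RNA. The sources used here do not give the array's genome build. Of 18952 probe sets, 183 Affymetrix controls were left out and 18769 tested 2-sided with limma 3.58.1 (lmFit, eBayes; R 4.3.3) at a Benjamini-Hochberg adjusted p of 0.05; intervals are unadjusted. The fit was run on simulated data with independent normal noise and few planted changes, a check of the code and not of the calls here. Genes were named from the platform annotation, with the probe set of the highest mean per gene; 11894 of 11983 genes matched RefSeq (Release 6 plus ISO1 MT), used for names, chromosome arms and neighbours. Precision is limited by the number of arrays.

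The members and lists were chosen with earlier results of these data known. Named were all members, Sox14 and, from each list, up to 4 called genes with the largest change. Listed genes without a probe set of their own were not analysed here. The low range, the neighbours and overlapping genes, and the comparison of neighbours in the order of change were added after seeing the data. Alternatives tried were quantile normalisation, median centring, the replicate number as a block, array weights, a robust trended variance, no probe sets from the dimmest 40%, averaged probe sets per gene, leaving out each array and a threshold of 0.01.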

Additional observations from a re-analysis of the deposited data

Results flagged for a closer look

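The 18S ribosomal RNA control probe sets, which enter no comparison of the genotypes, averaged 12.18 on the log2 scale on the first mutant array, above the 7.56 to 7.94 of the other 5 arrays, controls included. Without that array the changes of the 10 autophagy genes ranged from -2.19 (Atg18b) to 0.42 (Atg101).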

How the results depend on the processing

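In every one of the alternatives with a threshold of 0.05, Atg1, Atg2, Atg9, Atg13, Atg17, Atg18a and Atg18b fell. The call of Atg101 was lost with the replicate block (0.39, adjusted p = 0.0507 in limma, so 0 genes rose) and without each of 4 arrays, and the number of genes that rose was 0 to 1 with arrays left out. The sign of Atg6, never called, turned with quantile normalisation (0.018) and with 4 arrays left out in turn, over a range of -0.074 to 0.040. At a threshold of 0.01, 5 of the 10 genes fell and 0 rose, 11 genes of the other lists fell and 2 rose, and 1000 probe sets fell and 963 rose, against 1956 and 1621 at 0.05. Atg18b minus Atg18a ranged from -1.07 to -0.95 with arrays left out (exact permutation p = 0.2, the smallest that 2 against 3 allow). Over all tested probe sets, the deviations of same-numbered samples from their genotype means correlated at 0.17, -0.10 and -0.02. These values cannot show whether same-numbered samples shared a batch, which the labels do not state. With the replicate number as a block 7 of the 10 genes fell, and 1775 probe sets fell and 1501 rose. Atg14 passed the test with median centring (-0.34), when 8 genes fell. Of 120 values of the 10 genes under 12 of the alternatives, all with a threshold of 0.05, 109 kept both direction and call.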
